A study of Homo sapiens with 28 samples.

Results

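The genes described here code for the proteins of the cytosolic ribosome. They were taken as all autosomal protein-coding genes of the GENCODE annotation on hg38 whose symbol is RPL or RPS followed by a number, with or without a final A, together with RPLP0, RPLP1, RPLP2 and RPSA, leaving out the RPS6K kinases and symbols that end in L. This gave 73 genes of 19111 autosomal protein-coding genes, 43 of the large subunit and 30 of the small subunit, spread over 20 autosomes with 12 of them on chromosome 19. Each gene was examined as a window that holds the annotated gene and 5 kb on either side. The windows had a median length of 15330 bp, against 37877 bp over all genes, and RPL37A had the longest, 90356 bp.

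Ribosomal proteins assemble with ribosomal RNA into the large and the small subunit, and their genes are among the most strongly and evenly transcribed in dividing cells. Their promoters often start transcription at a pyrimidine-rich initiator, and the messenger RNAs that result begin with a terminal oligopyrimidine tract through which their translation is controlled together. H3K36me2, dimethylated lysine on histone H3, is laid down by the NSD enzymes and by ASH1L and is known for broad domains between genes and across gene bodies, whereas the transcribed part of active genes tends to carry the trimethyl form.

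The series compared human U2OS osteosarcoma cells left without UV with cells at 3 h after UV-C light at a dose of 20 J/m2, by chromatin immunoprecipitation and sequencing. H3K36me2 was profiled in wildtype cells with an antibody to this mark, in 2 replicates without UV and 2 at 3 h, each set against input chromatin. The carboxy-terminal domain of ASH1L, called CTD here, which contains the catalytic SET subdomain, was profiled through its Flag tag in ASH1L knockout cells transfected with a vector for it, in 3 replicates without UV and 3 at 3 h. Its controls were the same knockout cells transfected with empty vector, so that controls and CTD samples share the deletion and the transfection; these controls were pooled at 3 h and kept apart without UV, and this difference cannot be told apart from that of UV within the CTD data. The labels call the replicates biological and say nothing on separate clones, and the CTD is made from a vector, not from the gene of the cell.

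Each of the 10 peak lists held 500000 broad peaks, so that the lists carry no depth. The H3K36me2 lists covered 15.8% and 15.2% of the autosomes without UV and 13.8% and 14.2% at 3 h. The CTD lists covered 9.24 to 11.5%. Within the ASH1L gene, whose carboxy-terminal part the vector codes for, the highest peak of each CTD list had a fold enrichment over control between 5.87 and 41.2, against at most 3.67 anywhere else in these lists. The highest H3K36me2 peak in ASH1L in wildtype cells had a fold enrichment between 1.91 and 2.46. The peaks in the ribosomal protein windows were weak: their median fold enrichment was 1.72 to 1.81 in every list, close to the 1.72 to 1.87 of peaks in all windows, and no list held more than 8 of them with a −log10 p of 3 or more. No CTD peak there reached a −log10 q of 1.3, a q-value of 0.05, and 2 to 10 H3K36me2 peaks per list did. Of the 500000 peaks of each whole list, only 14 or 15 reached it for CTD, and 36290 to 52802 for H3K36me2.

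The position of both signals was read from the GENCODE starts, whereas the promoters were taken at RefSeq starts. Of the 73 genes, 58 were matched to the RefSeq promoter table (GRCh38.p14). In 54 of these 58 the RefSeq start lies within 50 bp of the GENCODE start. In RPL15, RPS27A, RPL6 and RPS29 the starts lie 587, 785, 1837 and 12330 bp apart. The sequences below run from 100 bases before to 20 bases after the start, on the strand of the gene, for the genes fixed for description whose RefSeq start lies within 50 bp of the GENCODE start: RPLP0 at chr12:120201092-120201211 (minus strand), RPSA at chr3:39406620-39406739 (plus strand), RPL11 at chr1:23691679-23691798 (plus strand), RPS6 at chr9:19380217-19380336 (minus strand) and RPL13A at chr19:49487508-49487627 (plus strand). Capitals mark 1 match in each: CTTT, the core of the pyrimidine initiator, where it lies within 10 bases of the start on the strand of the gene, or else one of the motifs CCGGAAG and TATAAA. Matches to the initiator core farther from the start are left in lower case.
RPLP0: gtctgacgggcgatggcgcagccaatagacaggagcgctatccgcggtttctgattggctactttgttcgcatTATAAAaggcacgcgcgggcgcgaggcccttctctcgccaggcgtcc
RPSA: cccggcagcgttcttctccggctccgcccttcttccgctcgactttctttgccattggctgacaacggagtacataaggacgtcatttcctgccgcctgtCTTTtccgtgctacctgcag
RPL11: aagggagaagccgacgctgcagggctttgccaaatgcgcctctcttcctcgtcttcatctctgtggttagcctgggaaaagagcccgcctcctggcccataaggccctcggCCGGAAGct
RPS6: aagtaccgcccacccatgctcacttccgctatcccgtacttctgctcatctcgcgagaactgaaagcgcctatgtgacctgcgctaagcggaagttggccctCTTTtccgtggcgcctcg
RPL13A: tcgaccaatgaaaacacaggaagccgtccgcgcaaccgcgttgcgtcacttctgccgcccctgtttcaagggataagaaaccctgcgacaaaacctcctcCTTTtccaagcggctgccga
In RPSA and RPL13A the CTTT match began at base 1 of the transcript and in RPS6 at base 3, whereas RPLP0 held TATAAA starting 27 bases before its start and RPL11 held CCGGAAG starting at base 12. The initiator core CTTT, searched within 10 bases of the start on the strand of the gene, was found in 34 of the 58 promoters (58.6%), against 8.07% of 14616 promoters of autosomal protein-coding genes. CCGGAAG, a core that ETS factors bind, was found on either strand in 20 promoters of ribosomal protein genes (34.5%) against 14.5% of all. A YY1 motif was in 3 (5.17% against 2.01%) and TATAAA in 5 (8.62% against 9.72%), each searched on both strands in the 250 bases before and 50 after the start. These are letter matches only.

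The transcribed part of the ribosomal protein genes, taken as the canonical transcript, was nearly free of H3K36me2 peaks, with and without UV. Between 3 and 1 kb before their starts the covered share, taken over both subunits together, was close to that of all genes without UV and below it at 3 h. From the start to 3 kb downstream, 71 of the 73 genes had no covered base in any of the 4 H3K36me2 lists, as had 39.1% of all genes. RPL18, a large subunit gene, was among the exceptions, with 205 covered bases in 1 list at 3 h. Over the whole canonical transcript, 70 of the 73 genes had no covered base in any list, against 19% of all genes, whose transcripts are longer (median 23212 bp against 4437 bp). Here RPL13A was a further exception, with 195 bases in 1 list without UV. In the lists without UV, 0.0543% and 0.0861% of the transcribed bases of ribosomal protein genes were covered, and 0% and 0.0571% at 3 h. The same share over all genes was 13.9% in both lists without UV and 11.6% and 11.7% at 3 h. The stretches compared here and below were chosen after the profiles about the start had been seen.

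Upstream of the start the picture was different. Between 3 and 1 kb before the start, 18.3% and 18.4% of the bases of ribosomal protein genes were covered without UV, against 18.8% and 19.2% at all genes. At 3 h the shares were 10.6% and 9.30%, against 13.1% and 13.0%. The lists of the 2 conditions did not overlap at either set of genes. Without UV small subunit genes had 22.4 to 24.0% covered there and large subunit genes 14.3 to 15.7%. At 3 h they had 11.7 to 11.8% and 7.53 to 9.75%. From 5 to 3 kb before the start ribosomal protein genes lay below all genes, with 8.16% and 11.7% against 16.7% and 16.9% without UV. At 3 h the shares in that stretch were 8.02% and 4.73%, against 12.1% and 11.9%. In the last 500 bp before the start the coverage was already low at ribosomal protein genes, 0.507% and 1.05% without UV and 0.0630% and 0% at 3 h, whereas the lists without UV covered 10.7% and 11.1% of this stretch at all genes and those at 3 h 6.33% and 6.93%. The highest of the 40 bins of 250 bp lay 1375 bp before the start without UV, at 22.0% for ribosomal protein genes and 20.3% for all genes. The profile then dropped to 0 in every list in 13 of the 40 bins without UV and 19 at 3 h, all of them downstream of 250 bp before the start; over all genes no bin was at 0 and the lowest held 10.8% without UV and 6.45% at 3 h.

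**Figure D1:**
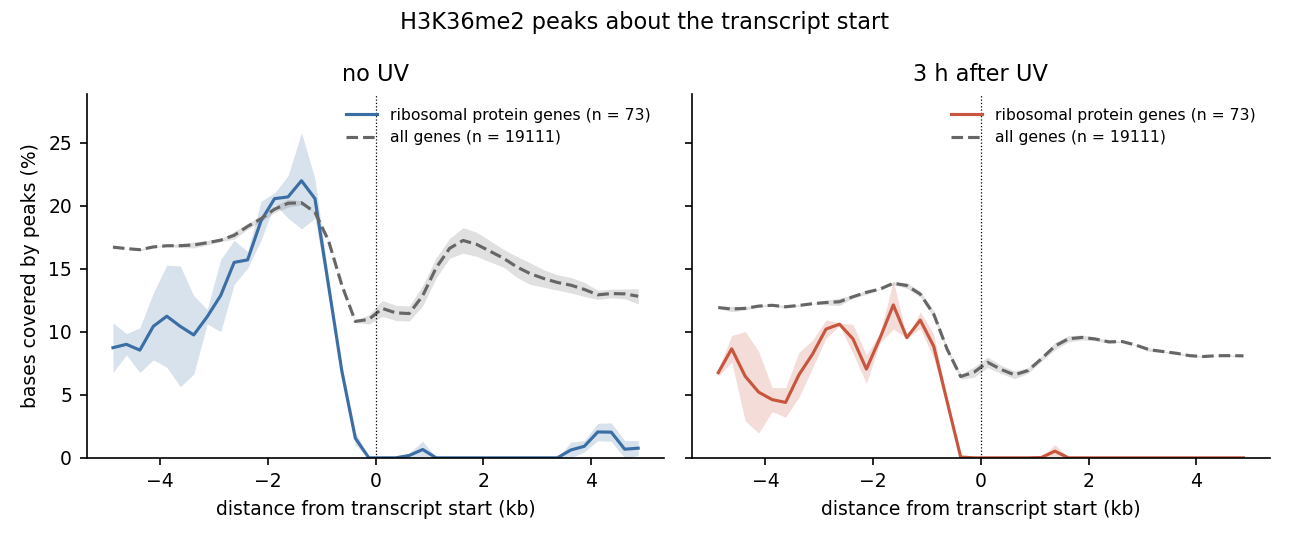
Percent of bases covered by H3K36me2 peaks in bins of 250 bp from 5 kb before to 5 kb after the transcript start, without UV (left) and 3 h after UV (right). Lines are means over the 2 lists of a condition and bands run from the lowest to the highest list. The solid line of the 73 ribosomal protein genes meets the dashed line of all genes near 1.4 kb before the start without UV, lies below it there at 3 h (9.54% against 13.7%), and is at or near 0 in both panels from the start to beyond 3 kb.

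No stretch covered in all 4 H3K36me2 lists was centred in a canonical transcript near its start. There were 35 such stretches in 19 of the 73 windows (26.0%), against 57.8% of all windows, which are longer at the median. The stretches had a median width of 394 bp, and 20 of them were centred upstream of the start. Between 3 and 1 kb before the start each of the 4 lists covered some base at 16 genes (21.9%), against 21.8% of all genes. The other 15 stretches were centred at least 16771 bp downstream, in RPL37A, RPS3, RPS29 and RPSA, outside the canonical transcripts. At RPS29 the RefSeq start lies 12330 bp upstream of the GENCODE start used here. Its stretches centred 2394 and 10716 bp before the GENCODE start lie downstream of the RefSeq start, inside the annotated gene. Among the widest upstream stretches were one of 801 bp before RPL28 (chr19:55382412-55383212), centred 3121 bp before the start and inside TMEM238, and one of 793 bp before RPL37 (chr5:40836899-40837691), centred 2072 bp before its start. Before RPL37 the strongest overlapping peak of each list had a fold enrichment of 1.93 and 2.21 without UV, against 1.70 and 1.65 in the lists at 3 h. The central 200 bases of the RPL37 stretch, in which GENCODE annotates no gene, are shown on the plus strand of hg38 (chr5:40837196-40837395) as an example of upstream DNA covered in every list. Capitals mark its CG pair, and its GC content is 38%.
RPL37 upstream: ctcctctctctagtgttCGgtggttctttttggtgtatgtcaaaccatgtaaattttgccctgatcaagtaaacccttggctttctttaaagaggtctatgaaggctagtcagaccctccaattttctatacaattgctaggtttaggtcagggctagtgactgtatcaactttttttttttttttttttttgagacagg

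Taken over the whole windows, H3K36me2 peaks covered less of the ribosomal protein genes than of all genes, and less at 3 h than without UV. Without UV 6.24% and 6.94% of the window bases were covered (6.59% ± 0.497, SD, n = 2), against 14.7% and 14.6% of all windows. At 3 h the shares were 4.08% and 3.61% (3.85% ± 0.333, SD, n = 2), against 12% and 12.2%. The 2 conditions did not overlap in either set, and the mean was lower at 3 h by 2.74 percentage points at ribosomal protein genes and by 2.54 at all windows, or −0.78 and −0.28 as a log2 ratio. Within 1 kb of the start the log2 ratio was −0.78 at ribosomal protein genes and −0.71 at all genes. Between 3 and 1 kb before the start the ratios were −0.89 and −0.54. In the first 3 kb they were −0.59, where ribosomal protein genes had almost no coverage, and −0.80. With 2 lists against 2 an exact permutation test cannot go below p = 0.333. Small subunit genes went from 6.20% ± 0.566 to 3.33% ± 0.0234 and large subunit genes from 6.84% ± 0.452 to 4.19% ± 0.562 (SD, n = 2 each). The median gene had 4.16% of its window covered without UV and 1.19% at 3 h, and the median of all windows was 9.38% and 5.26%. RPL37A alone held 26.0 to 33.5% of the covered bases in these windows, and without it the log2 ratio to all windows without UV was −1.53 in place of −1.15.

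**Figure D2:**
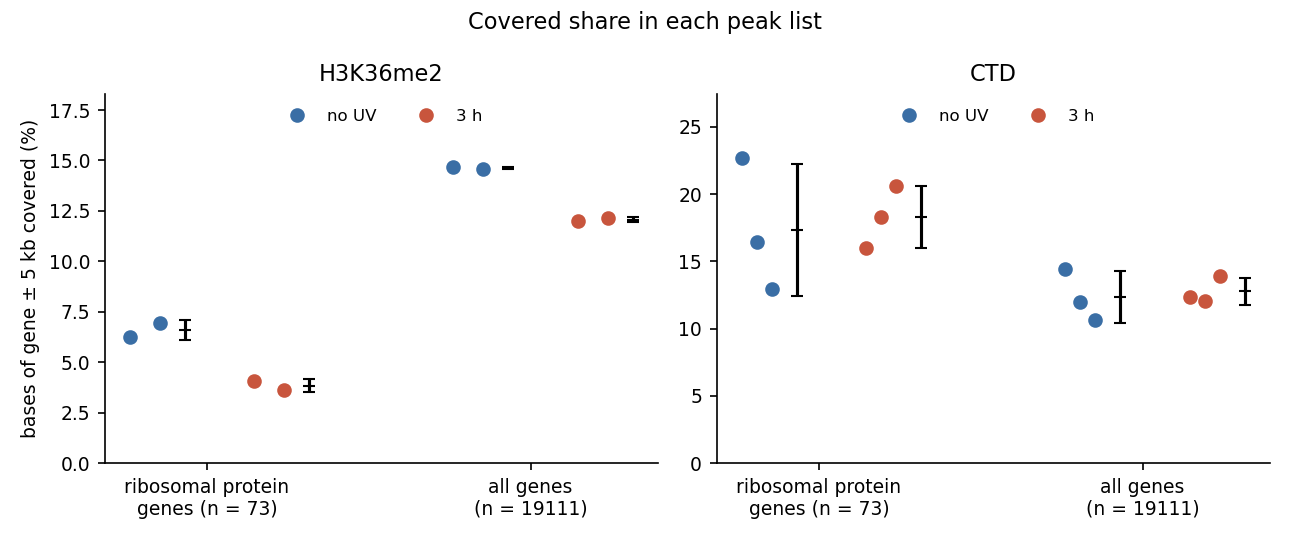
Percent of the bases of the gene windows (gene with 5 kb on either side) covered by peaks in each list, H3K36me2 left and CTD right, for the 73 ribosomal protein genes and all 19111 genes. Points are lists, and bars beside them give the mean and SD; H3K36me2 points at 3 h lie below those without UV in both sets of genes, while the CTD points of the conditions overlap.

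Of the 73 genes, 53 had a lower mean H3K36me2 coverage at 3 h and 10 a higher one, while 10 had no covered base in any list (RPL10A, RPL13, RPL21, RPL27, RPL35A, RPL9, RPS15, RPS15A, RPS18 and RPS25), against 5.12% of all windows. Without UV alone 12 genes had none (16.4%), against 6.42% of all windows. At 3 h alone 26 genes had none (35.6%), against 13.2% of all windows. Over all windows 74.7% were lower and 20.1% higher. In 22 genes both lists at 3 h were below both lists without UV (30.1%), a smaller share than the 48.8% of all windows, and in 0 genes were both above, against 6.43%. A window without a covered base in any list, as in 10 of the 73 genes, cannot be counted as lower. The ribosomal protein windows are also shorter, with a median of 15330 bp against 37877 bp. The part of window length in the shares of this paragraph was not tested. The count of 22 moved with the setting, to 40 (54.8%, against 62.2% of all windows) without replicate 1 without UV, 38 (52.1%, against 53.3%) with 10 kb flanks, 8 (11.0%, against 38.5%) without flanks, and 10 (13.7%, against 31%) and 2 (2.74%, against 11.7%) with peaks of −log10 p of 2 and 3 or more. limma called none of the 73 genes and none of the 19111 windows at an adjusted p of 0.05 (the lowest adjusted p was 0.0603 over all windows and 0.0632 over ribosomal protein genes). At an unadjusted p under 0.05, 11 ribosomal protein genes were lower and 0 higher, against 23.3% of all windows lower and 1.74% higher. Leaving out 1 list moved the number of ribosomal protein genes at this p, in either direction, from 11 to 19 without replicate 1 without UV (5126 of 19111 windows) and to 6 and 5 without replicates 1 and 2 at 3 h (2750 and 2702 windows). Restricting the peaks to those found again in the other replicate gave 8 called genes (11.0%), 7 of them lower, against 11.6% of all windows, and leaving out replicate 1 without UV gave 5 (6.85%), all lower, against 5.52%. Both shares are close to those of all windows.

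Among the genes with the highest coverage without UV, RPL37A, a large subunit gene (chr2:216498825-216579180), had 29.5% and 28.5% without UV and 18.9% in both lists at 3 h. This difference of −10.0 percentage points (SE 0.486) had the lowest adjusted p of the ribosomal protein genes, 0.0632 by limma, and the covered stretches lay outside the canonical transcript. RPS27, a small subunit gene (chr1:153990762-153992155), had 19.8% and 17.1% without UV and 11.5% and 18.1% at 3 h, so that its conditions overlapped. RPS2, a small subunit gene (chr16:1962058-1964841), had 18.1% and 11.8% without UV against 0% and 4.11% at 3 h, which was the largest difference among genes whose lists did not overlap. RPSA, whose protein sits in the small subunit and has also been described as a laminin receptor (chr3:39406716-39426255), had 15.2% and 13.7% against 13.3% and 13.5%: its lists did not overlap, but the difference of the means was small beside those of the other three.

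The next largest differences without overlap were those of RPL19, RPS16 and RPL41. RPL19, of the large subunit (chr17:39200283-39204840), had 14.8% and 12% without UV and 0% and 3.17% at 3 h. RPS16, of the small subunit (chr19:39433137-39435949), had 13.0% and 11.5% against 1.69% and 0.687%, a difference of −11.1 percentage points (SE 0.927, limma adjusted p = 0.0808). RPL41, which codes for a very short protein of the large subunit (chr12:56116590-56117967), had 12.7% and 8.48% against 0% in both lists at 3 h. In each of these genes every list at 3 h was below every list without UV, and none passed the test after adjustment.

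Of the 7 genes fixed for their roles, RPSA is given above and had lists that did not overlap. RPLP0, the base of the ribosomal stalk (chr12:120196699-120201235), had 0% and 8.54% without UV and 3.37% and 0% at 3 h. RPL5 (chr1:92832013-92841924) and RPL11 (chr1:23691742-23696835), the large subunit proteins that bind MDM2 when ribosome assembly is disturbed, differed in level: RPL5 had 6.94% and 5.58% against 7.42% and 2.92%, and RPL11 had 0% in both lists without UV and 1.58% and 0% at 3 h. RPS6, the small subunit protein phosphorylated downstream of mTOR (chr9:19375715-19380236), had 0.578% and 6.94% against 9.25% and 0%. RPL13A (chr19:49487510-49493057) had 12.1% and 10.9% against 11.2% and 8.62%. RPS27A, made as a fusion with ubiquitin (chr2:55231903-55235853), had 9.78% and 6.49% against 0% and 8.42%. In these other 6 the lists of the 2 conditions overlapped.

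Few strong peaks were found in both replicates. RPL37A was among those with a peak of −log10 p of 3 or more in both lists without UV, and no gene had one in both lists at 3 h. Taking the 2 strongest peaks of each list, the 3 with the highest −log10 p were again upstream of the canonical start: at RPL22 (3.82, centred 1031 bp before the start, replicate 1 without UV), at RPL13A (3.81, 847 bp, the same list) and at RPS29 (3.77, 10753 bp, replicate 1 at 3 h). Those at RPL22 and RPS29 lie inside the annotated gene, which begins before the canonical transcript.

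**Figure D3:**
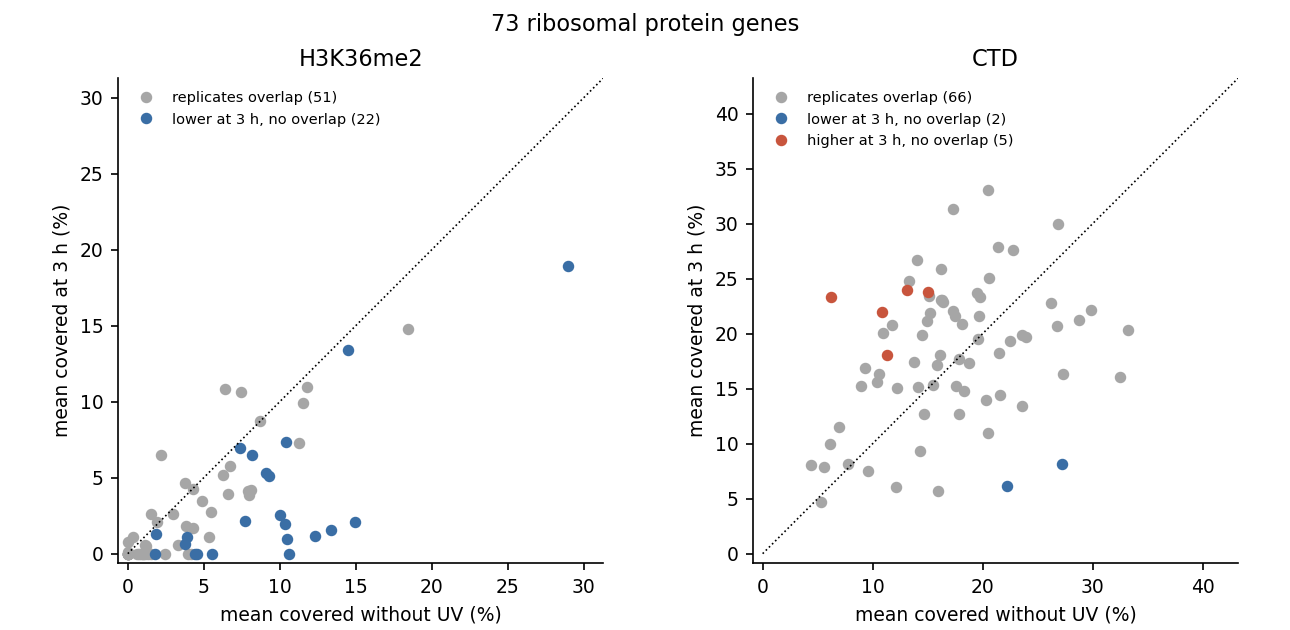
Mean percent of the window covered without UV (horizontal axis) and at 3 h (vertical axis) for each of the 73 genes, H3K36me2 left and CTD right; the dotted line marks equal values. Colours mark genes whose lists do not overlap between conditions: 22 lower and 0 higher for H3K36me2, 2 lower and 5 higher for CTD.

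CTD peaks were spread over the ribosomal protein windows, with no gap in the transcribed part, and over the whole windows the lists of the conditions overlapped. Without UV they covered 22.7%, 16.4% and 12.9% of the window bases (17.3% ± 4.93, SD, n = 3), and at 3 h 16.0%, 18.3% and 20.6% (18.3% ± 2.30, SD, n = 3). The log2 ratio of the means was 0.08, but 0.69 with peaks of −log10 p of 2 or more, and −0.10 and −0.02 without replicate 3 of the lists without UV or at 3 h. All windows had 14.5%, 12% and 10.7% without UV, against 12.4%, 12.1% and 13.9% in the lists at 3 h. The covered share of the ribosomal protein windows was above that of all windows in all 6 lists, by a factor of 1.21 to 1.57. The GC content of the windows went the same way, with a median of 47.9% against 44.8%, and CTD coverage without UV was related to GC both across the 73 genes (Spearman rho of 0.49) and across all windows (0.57, n = 19111; genes are not independent replicates and share each list). The part of GC content in this difference was not tested.

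CTD coverage was highest at the start itself. In the 500 bp before the start 31.2%, 25.2% and 21.4% of bases were covered without UV and 16.9%, 22.2% and 33.4% at 3 h, against 24.8%, 17.3% and 15.3% and then 15.9%, 19.5% and 29.5% at all genes. The highest bin lay 125 bp before the start, at 29.3% without UV and 28.0% at 3 h, and over all genes 125 bp after it, at 20.9% and 22.7%. In the transcript the CTD lists covered 13.2 to 19.7% without UV and 15.9 to 20.3% at 3 h, the very stretch in which H3K36me2 coverage was near 0. Each of the 6 lists covered some base of the window at 68 of the 73 genes, against 92.2% of all windows. Each covered some base within 1 kb of the start at 8 of the 73 genes (11.0%), against 5.94% of all genes. In 0 of the 73 windows was the same base covered by all 6 lists, against 4.17% of all windows, which are longer at the median. Between 3 and 5 kb past the start the CTD lists covered 19.8%, 12.3% and 9.21% without UV and 17.8%, 24.0% and 21.4% at 3 h, against 17.5%, 13.2% and 9.70% and then 12.6%, 12.9% and 16.9% at all genes. The lists of the conditions overlapped there in both sets, at the ribosomal protein genes through replicate 1 without UV alone. In the bin centred 4125 bp past the start those of the ribosomal protein genes did not (10.1 to 18.3% and 21.0 to 27.6%). The same held there for mitochondrial ribosomal protein genes (5.56 to 15.4% and 15.9 to 19.1%), but not for all genes. It also held for the ribosomal protein genes in the bin centred 2125 bp before the start (8.54 to 18.9% and 19.4 to 20.2%). Both bins were picked from 40 after the profiles had been seen. For a single bin an exact permutation test of 3 lists against 3 cannot go below p = 0.1. Some of 40 bins can therefore separate like this without a difference between the conditions. With peaks of −log10 p of 2 or more, the cutoff the authors name, the log2 ratio to all genes in the last 500 bp before the start without UV turned from 0.44 to −0.84.

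**Figure D4:**
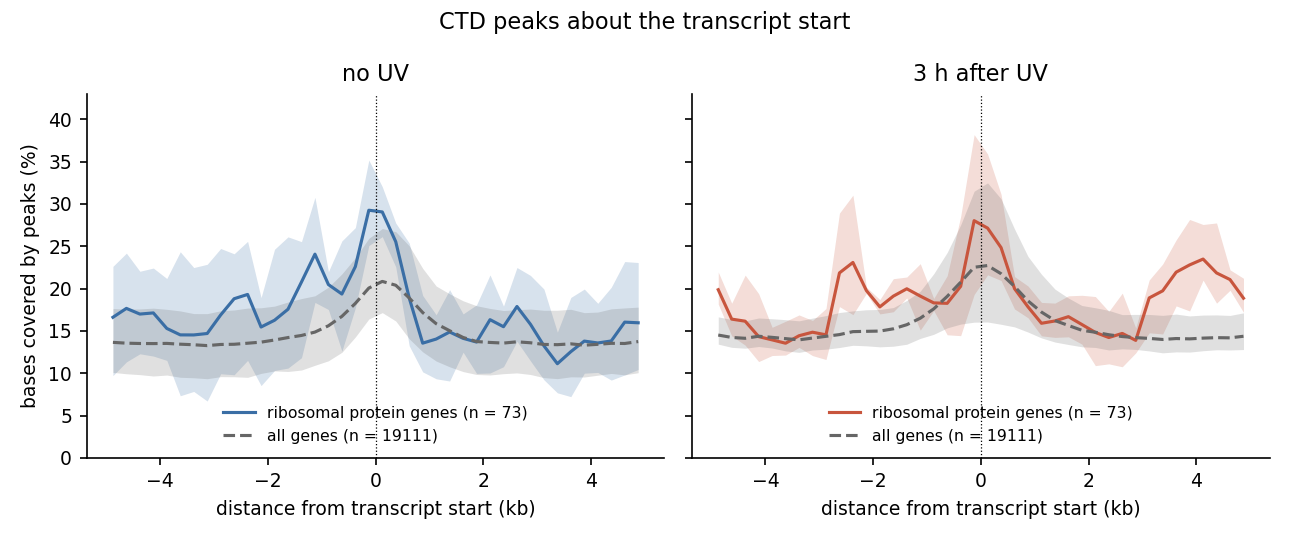
Percent of bases covered by CTD peaks in bins of 250 bp from 5 kb before to 5 kb after the transcript start, without UV (left) and 3 h after UV (right). Lines are means over the 3 lists of a condition and bands run from the lowest to the highest list. Both sets of genes are highest next to the start, the ribosomal protein genes at 29.3% and all genes at 20.9% without UV.

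No ribosomal protein gene and no window at all was called for CTD by limma (the lowest adjusted p was 1). At an unadjusted p under 0.05, 3 ribosomal protein genes were higher at 3 h and 0 lower, against 2.36% and 0.68% of all windows. Leaving out 1 list gave 7 and 5 such genes in either direction without replicates 1 and 3 without UV (1082 and 614 of 19111 windows) and 1 without replicate 2 at 3 h (556 windows). All 3 lists at 3 h were above all 3 without UV in 5 genes (6.85%), against 5.24% of all windows, and below in 2 genes (2.74%), against 2.16%. The count of 5 became 16 (21.9%, against 16.4% of all windows) and 11 (15.1%, against 9.25%) without replicates 1 and 2 without UV, 11 (15.1%, against 11.1%) and 8 (11.0%, against 10.2%) without replicates 1 and 2 at 3 h, 15 (20.5%, against 15.6%) with peaks found in another replicate and 0 (against 2.98%) with peaks of −log10 p of 2 or more. The mean was higher in 43 genes (58.9%), against 55.4% of all windows, and lower in 30 (41.1%), against 42.9%. The shares of genes with a higher or lower mean are close to those of all windows. The smallest exact permutation p for 3 lists against 3 is 0.1. RPS27 had 0%, 8.91% and 9.60% without UV and 19.1%, 35.8% and 15.1% at 3 h. RPL4, of the large subunit (chr15:66498015-66524532), had 14.1%, 12% and 6.34% against 22.0%, 24.9% and 19%, a difference of 11.2 percentage points (SE 3.23, limma adjusted p = 1). RPL14, of the large subunit (chr3:40457292-40468587), had 14.8%, 17.9% and 6.58% against 22.5%, 22.9% and 26.4%. These 3 are the genes with an unadjusted p under 0.05, and all have every list at 3 h above every list without UV.

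RPL35, of the large subunit (chr9:124857880-124861981), followed with 15.1%, 15.8% and 14.4% against 16.7%, 18.8% and 35.9%, and RPS27A, given above for H3K36me2, with 10.9%, 14.8% and 8.26% against 20.6%, 17.4% and 16.3%. The 2 genes lower at 3 h in every list were RPS10 and RPS12, both of the small subunit. RPS10 (chr6:34417454-34426069) had 45.2%, 19.4% and 17.2% against 8.84%, 5.10% and 10.4%. RPS12 (chr6:132814569-132817564) had 16.8%, 36% and 13.9% against 4.67%, 4.90% and 8.80%. In both, 1 list without UV stood far above the other two.

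Single lists decided which genes had the most CTD without UV. RPL38 (chr17:74203582-74210655), RPL8 (chr8:144789765-144792587) and RPL7A (chr9:133348218-133351426), all of the large subunit, had 58.0%, 60.8% and 59.8% in replicate 1, but 13.9%, 14.0% and 7.49% in replicate 2 and 27.8%, 22.7% and 22.3% in replicate 3. RPS3, a small subunit protein that also binds damaged DNA (chr11:75399515-75422280), had its highest value in replicate 2, 45.0%, beside 27.1% and 14.4%. At the other end stood RPS23 (0%, 4.52% and 8.62%), RPS3A (0%, 1.69% and 14.1%), RPL17 (4.45%, 7.19% and 5.01%) and RPS7 (0.575%, 13.6% and 4.16%). The order of the genes hardly repeated between replicates: across the 73 genes Spearman's rho was 0.07 to 0.12 between lists without UV and 0.15 to 0.41 between lists at 3 h, whereas for H3K36me2 it was 0.62 without UV and 0.60 at 3 h. Over all windows the CTD lists gave 0.27 to 0.60.

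**Figure D5:**
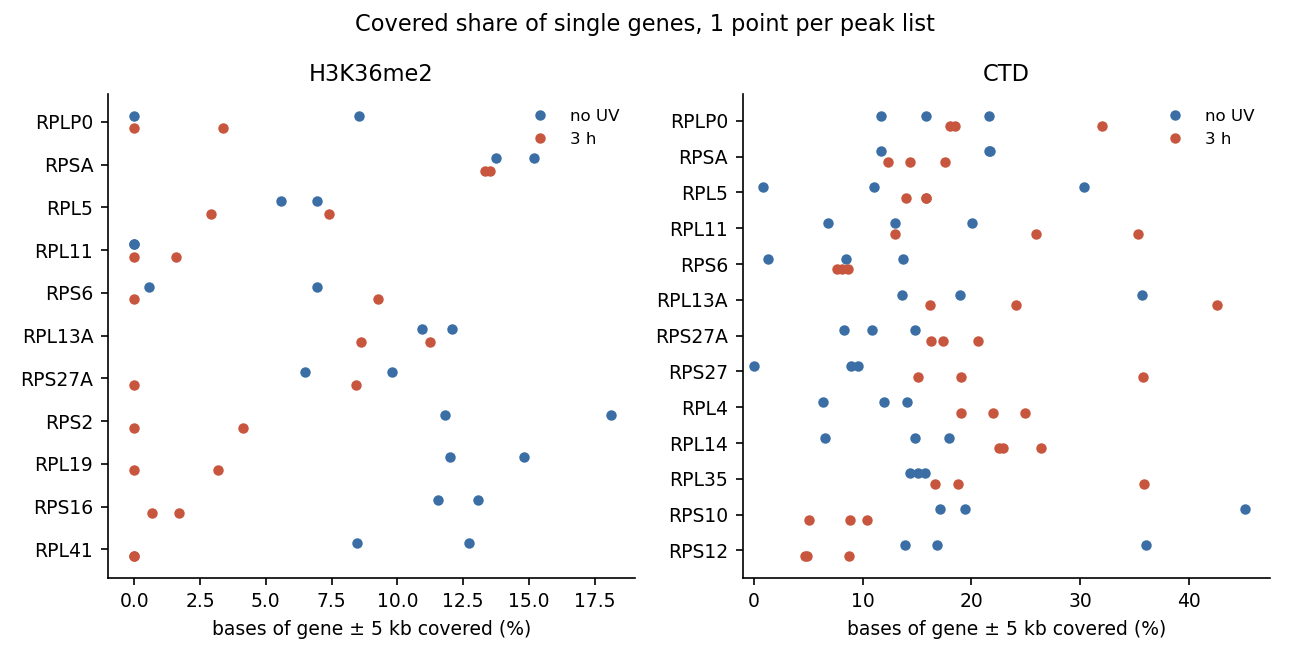
Percent of the window covered in each list, 1 point per list, for the genes fixed for their roles and for those with the largest differences among genes whose lists do not overlap; blue points are without UV and red points at 3 h. RPS2, RPL19, RPS16 and RPL41 have all H3K36me2 points at 3 h at or below 4.11%. The 3 CTD points of a condition lie far apart in genes such as RPS10, with 45.2%, 19.4% and 17.2% without UV.

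Related genes were compared for the pattern at the start. None of the 6 cytosolic ribosomal protein genes outside the rule (among them RPL10, RPL36A, RPL39 and RPS4X on the X chromosome, and FAU, which codes for a ubiquitin-like fusion) had a base covered by H3K36me2 from the start to 3 kb in any list, against 39.1% of all genes without one. This held for 13 of 16 translation factors of the TOP class, for 57 of 78 genes of the mitochondrial ribosome and for 4 of 8 ribosomal protein paralogues. Mitochondrial ribosomal protein genes had 2.10% of these bases covered without UV and 1.11% at 3 h, between the ribosomal protein genes, at 0.0705% and 0.0468%, and all genes, at 14.6% and 8.39%. Mean CTD coverage in the 500 bp before the start was 25.9% without UV and 24.2% at 3 h at the ribosomal protein genes. It was 21.9% and 24.8% at mitochondrial ribosomal protein genes and 34.15% and 41.2% at the paralogues. The TOP class had 21.7% and 28.5%, and the genes outside the rule 14.3% and 36.1%. In the bin 125 bp after the start, mitochondrial ribosomal protein genes had 27.7% and 30.6%, beside 29.1% and 27.2% at the ribosomal protein genes.

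Over whole windows, both H3K36me2 lists at 3 h were below both without UV in 27 of 78 mitochondrial ribosomal protein genes and above in 3, beside 48.8% and 6.43% of all windows, and limma called none. MRPL33 had the highest level, 33.8% ± 1.97 without UV and 35.7% ± 0.381 at 3 h, while MRPS7 had no covered base in any list. Of the TOP class, 5 of 16 were lower and 2 higher without overlap; EIF3F, a subunit of initiation factor eIF3, had 34.5% ± 2.42 without UV and 33.3% ± 2.99 at 3 h, and EEF2, the translocation factor, had 1.35% ± 1.91 and 0%. Of the paralogues 3 of 8 were lower and 1 higher: RPL3L, a paralogue of RPL3 known from muscle, had 24.4% ± 3.97 and 1.49% ± 0.260, and RPL39L 27.1% ± 2.26 and 32.8% ± 1.69 (SD, n = 2 each). For CTD the genes without overlap were 3 lower and 3 higher of the 78, 1 and 1 of the 16 and 2 and 0 of the 8, beside 2.16% lower and 5.24% higher over all windows. None of these lists was tested as a group.

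Ribosomal protein genes have many processed pseudogenes, and reads that fit several places had been removed by a mapping quality filter. Of all stretches of 100 bases in the ribosomal protein windows, 1.27% occur elsewhere in the genome, and 1.89% of those in exons, with over 5% of the window in 2 genes. The part of this in the low coverage was not tested gene by gene. With exons left out, the log2 ratio of H3K36me2 coverage to all windows without UV was −0.84 in place of −1.15. Of the bases of the merged windows, 49.1% lie in the ribosomal protein genes, 22.4% in other protein-coding genes and 28.5% in neither. H3K36me2 covered 5.01% and 5.45% of the first without UV, 5.81% and 7.16% of the second and 8.65% and 9.45% of the third, and 2.61% and 3.14%, 3.48% and 2.80% and 6.85% and 5.00% at 3 h. In each of these parts both lists at 3 h were below both lists without UV. The annotated genes include long alternative transcripts, such as those of RPL37A, and so held more covered bases than the canonical transcripts.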

How the data were processed

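ChIP-seq of H3K36me2 and of the Flag-tagged ASH1L CTD was analysed from the 10 deposited broad peak lists, which came from 28 samples that include inputs and empty-vector controls. Per the labels and the study's methods, the authors trimmed reads with Trim Galore 0.6.5, aligned them to hg38 with BWA 0.7.17-r1188, removed duplicates, poorly mapped reads and blacklisted regions with Picard, SAMtools 1.7 and bedtools 2.29.2, and called broad peaks per replicate with MACS2 2.2.7.1. The deposited columns used were the fold enrichment over control, which is a ratio, and the −log10 of the p-value and of the q-value. Each list stops at 500000 peaks and its weakest peak has a −log10 p of 1.22 to 1.42, below the stated cutoff of 2, so that these lists are capped rankings. They hold no read counts, so the depth is unknown and no counting interval was given.

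Overlapping peaks of a list were merged and the percent of bases covered was computed for each gene of GENCODE 44 with 5 kb on either side. limma 3.58.1 in R 4.3.3 (robust, variance trended on window length, two-sided) was fitted on 19111 windows with Benjamini-Hochberg adjustment and a threshold of 0.05, separately for H3K36me2 and CTD, and was tested on simulated data. The p-values measure the spread between the labelled biological replicates. Tables were handled with Python 3.11.15, numpy 2.4.6 and pandas 2.3.3. Named genes are those fixed for their roles, the 4 highest and 4 lowest without UV, the 4 largest differences in each direction among genes whose lists do not overlap, and genes with a peak of −log10 p of 3 or more in every list of a condition. The genes, lists and stretches were chosen with earlier results of these data known. Some genes and 1 sequence are counted in the totals but not reported here by name.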

Additional observations from a re-analysis of the deposited data

How the results depend on the processing

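The count of genes without H3K36me2 in the first 3 kb was 71 to 73 under stricter peaks or with 1 list left out, settings chosen after seeing the data that remove peaks and so could not lower it. The lower H3K36me2 coverage at 3 h kept its direction in every setting: the log2 ratio, −0.78 as reported, was −2.14 with peaks of −log10 p of 3 or more, −1.13 with peaks shared by 50% with the other replicate and −0.87 to −0.69 with 1 list left out. It was weakest, at −0.63, with each list scaled to its covered share of the autosomes, and −0.64 with peak centres. The log2 ratio to all windows without UV, −1.15 as reported, was −1.56 and −2.45 with peaks of −log10 p of 2 and 3 or more, −1.33 and −1.27 with peaks found in the other replicate by any or by 50% overlap, −0.91 with peak centres, −0.87 with 10 kb flanks, −1.48 without flanks, −0.84 without exons, −1.53 for canonical transcripts with 5 kb flanks and −1.53 without RPL37A (the last 2 added after seeing the data), and −1.23 to −1.07 with 1 list left out. The 22 genes lower at 3 h without overlap became 10 and 2 with peaks of −log10 p of 2 and 3 or more (31% and 11.7% of all windows), 13 with peak centres (29.3%), 38 with 10 kb flanks (53.3%), 8 without flanks (38.5%) and 28 to 40 with 1 list left out (57.9 to 62.2%), 40 without replicate 1 without UV, where fewer lists have to be separate. limma, which called 0, called 8 with peaks found in the other replicate (11.6% of all windows called), 7 with 50% overlap (14.1%), 4 with peak centres (4.64%), 1 with 2 kb flanks (RPS26; 0.492%), 1 without windows at 0 (RPL37A; 7.83%), and 0 to 5 with 1 list left out, the 5 (among them RPL23, RPL37A, RPL38 and RPL41) without replicate 1 without UV (5.52%). The cause was not tested.

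For CTD, the log2 ratio of 3 h to no UV, 0.08 as reported, was 0.69 with peaks of −log10 p of 2 or more and −0.10 to 0.32 with 1 list left out, negative without replicate 3 without UV and without replicate 3 at 3 h (−0.02). The log2 ratio to all windows, 0.49 as reported, was 0.23 with peaks of −log10 p of 2 or more, 0.78 with 50% overlap and 0.37 to 0.56 with 1 list left out. The 5 genes higher at 3 h without overlap became 0 at −log10 p of 2 and 0 at 3 (2.98% and 0.00523% of all windows), 15 and 12 with peaks found in another replicate by any or 50% overlap (15.6% and 22.7%), 9 without flanks (4.99%) and 6 to 16 with 1 list left out (8.61 to 16.4%): 16 and 11 without replicates 1 and 2 without UV, and 11 and 8 without replicates 1 and 2 at 3 h. In the 500 bp before the start the log2 ratio to all genes, 0.44 as reported, was −0.84 with peaks of −log10 p of 2 or more, 0.84 with 50% overlap and 0.39 to 0.51 with 1 list left out. limma called 0 ribosomal protein genes for CTD in every setting it was fitted in, but 624 windows with 50% overlap and 16 with peaks of −log10 p of 2 or more. It could not be fitted to CTD peaks of −log10 p of 3 or more, which left no covered base without UV in the ribosomal protein windows. The cause was not tested.

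Replicate numbers are shared by the conditions. Deviations of same-numbered lists correlated at 0.01 for H3K36me2 and at −0.27, 0.11 and −0.44 for CTD. CTD lists of unlike numbers gave −0.31 to 0.45. With 2 or 3 lists per condition the deviations depend on each other, so these values cannot show whether same-numbered lists belong together. With the replicate block limma called 0 ribosomal protein genes for H3K36me2 and for CTD, as without it, with 9 and 1 at an unadjusted p under 0.05. Over the named genes, 31 of 390 H3K36me2 differences and 56 of 450 CTD differences had the opposite sign in an alternative, in 13 and 19 of 30 genes. With unknown depth, a gene listed without a peak may still carry signal below the cap of the list.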
